A study of Homo sapiens with 12 samples.

Results

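The genes described here serve the lysosome, the proton pump that acidifies it and the autophagy machinery that delivers cargo to it. They are 43 genes chosen by name from 55765 gene names in the RNA-seq count table, and all 43 are in the table and passed the filter on low counts. By role they are 11 hydrolases and other luminal proteins, 4 membrane proteins, 14 V-ATPase subunits and accessory proteins, the 2 transcription factors TFEB and TFE3, and 12 autophagy genes. RNA-seq was measured in 3 libraries of cells that received siRNA against ERI2 and in 3 libraries of cells that received a control siRNA. The cells are labelled HEK293T, a human kidney-derived line expressing the SV40 large T antigen, while the growth protocol names the parental HEK293. Both groups received 50 nM siRNA in a pair of transfections 48 hours apart and were harvested 72 hours after the second. ERI2 is an exonuclease related to ERI1. Neither an independent ERI2 siRNA nor a re-expression arm was part of the libraries used, and loss of ERI2 and off-target silencing cannot be told apart.

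Lysosomes are acidic organelles in which soluble hydrolases degrade proteins, lipids, glycans and nucleic acids. Their lumen is acidified by the V-ATPase, whose cytosolic V1 sector hydrolyses ATP and drives proton flow through the membrane-embedded V0 sector. In autophagy, a membrane sheet carrying lipid-conjugated LC3 and GABARAP proteins closes around cargo and fuses with the lysosome. TFEB and TFE3 are transcription factors that activate many of these genes through the CLEAR motif, a palindrome built around the E-box CACGTG, and mTORC1 at the lysosome surface holds them in the cytosol when nutrients are plentiful.

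The gene start regions of the listed genes were searched for that motif. Sequences are shown because the members that hold it and passed the expression test moved in both directions. RefSeq windows of GRCh38.p14, from 250 bases before to 50 bases after an annotated gene start, were matched for 33 of the 43 members. CACGTG, which reads the same on both strands, stood in a window of 8 of the 33 members (24.2%), against 8.77% of all 27305 genes with a window and 12.4% of the 10604 among them that were tested for expression. The longer TCACGTGA, which contains CACGTG, stood in 6 of 33 (18.2%), against 1.18% of all genes and 2.11% of the tested ones. Extended by G before and C after, a palindrome of 10 bases, it stood in 3 of 33 (9.09%), against 0.421% of all genes and 0.83% of the tested ones. Many of these genes are known to be activated through this motif. An excess was therefore likely beforehand, and these shares describe the list of genes, not the siRNA. Of the 8 members with CACGTG 6 had a log2 fold change above 0 and 2 below it. Of the 25 with a window and no CACGTG 7 were above 0. Most of the 8 did not pass the expression test, and a link between motif and direction was not tested. A match describes letters in the window and does not show that a factor binds there.

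The 2 members that hold CACGTG and passed the expression test are CTSD, which rose after ERI2 siRNA, and ATP6V0D1, which fell. Their 250 bases before the gene start follow, with capitals on CACGTG and on the flanking bases where the match runs on to the longer forms. That of CTSD is chr11:1763928-1764177 on the minus strand and that of ATP6V0D1 is chr16:67481158-67481407 on the minus strand.
CTSD: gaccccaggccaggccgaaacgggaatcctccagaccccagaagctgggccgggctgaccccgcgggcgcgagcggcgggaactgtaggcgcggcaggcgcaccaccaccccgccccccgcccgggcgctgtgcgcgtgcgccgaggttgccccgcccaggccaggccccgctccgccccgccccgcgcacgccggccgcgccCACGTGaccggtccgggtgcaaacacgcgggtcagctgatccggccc
ATP6V0D1: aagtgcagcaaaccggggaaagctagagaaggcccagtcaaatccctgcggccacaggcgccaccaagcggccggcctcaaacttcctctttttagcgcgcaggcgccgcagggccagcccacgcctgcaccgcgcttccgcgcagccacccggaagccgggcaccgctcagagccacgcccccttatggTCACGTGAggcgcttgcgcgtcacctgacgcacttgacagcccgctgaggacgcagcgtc
The remaining 6 members did not pass the test, and for each the longest match, or the nearest to the gene start where matches were equally long, is shown with 10 or fewer bases on each side, with the same use of capitals. These sites are at chr17:80101540-80101565 (GAA, plus strand), chr19:7522600-7522625 (MCOLN1, plus), chr13:113297228-113297253 (LAMP1, plus), chr20:45891300-45891325 (CTSA, plus), chr1:43974911-43974936 (ATP6V0B, plus) and chr9:114587701-114587726 (ATP6V1G1, plus).
GAA: tcccgccgGTCACGTGACccgcctct
MCOLN1: gctaccggGTCACGTGACcgaggcac
LAMP1: cggcgcagcTCACGTGAcaagcgctg
CTSA: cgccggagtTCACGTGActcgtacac
ATP6V0B: accggcgcatCACGTGggcgagttag
ATP6V1G1: gctgtgcgGTCACGTGACaacggggg
The LAMP1 window holds CACGTG 6 times, and in the copy shown the first base of CACGTG lies 1 base before the gene start. In CTSD and ATP6V0D1 the first base of CACGTG lies 47 and 59 bases before the gene start.

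Depth was 29.1 to 32.6 (ERI2 siRNA) and 30.1 to 38.3 (control siRNA) times 1e+06 counts per library, and every member had at least 126 counts in each library. ERI2 itself fell to 61.5% of the control level (log2 fold change -0.70, SE 0.0762, adjusted p = 0.000683), by the quasi-likelihood test of edgeR that gives every adjusted p below. Over all tested genes replicate 1 was the most distant library of each group, by a small margin with control siRNA. Its root mean square log2 difference to replicates 2 and 3 was 0.387 and 0.418 with ERI2 siRNA and 0.395 and 0.406 with control siRNA. Replicates 2 and 3 differed by 0.315 and 0.37. Over the members the median absolute differences to replicate 1 were 0.0913 and 0.114 with ERI2 siRNA, against 0.0499 between replicates 2 and 3. With control siRNA they were 0.138 and 0.114, against 0.118, so control replicate 1 did not clearly stand apart for these genes. Results are also given for replicates 2 and 3 alone, a choice made from the spread in these same values. Leaving out the libraries that differ most narrows the spread, so adjusted p of that fit may be too small and is a description. That fit called 13.9% of all tested genes higher and 14.1% lower, against 4.29% and 4.25% with all 6 libraries. Whether replicates were grown as separate cultures is not stated, and p-values reflect library-to-library spread that may be technical in part. Of 8 markers of HEK293-type cells 5 averaged at least 10 CPM (counts per 1e+06 counts, with library sizes scaled by TMM), with summed levels of 177 to 199 CPM in ERI2 siRNA libraries and 198 to 219.7 CPM in control libraries. 2 of them, the neurofilament genes NEFL and INA, were lower. The 10 markers of blood cells and macrophages, which are rich in lysosomes, summed to 1.25 to 1.75 CPM in ERI2 siRNA libraries and 1.16 to 2.06 CPM in control libraries. CD163 had 0 counts in all 6 libraries and PTPRC had at most 1 count in any.

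After ERI2 siRNA 7 of the 43 genes were lower and 1, CTSD, was higher, where 8.54% of all tested genes were called in either direction. The 7 were WIPI1, LAMP2, CTSB, ATP6V1A, ATP6V0D1, NPC2 and ATP6AP2, to between 70.5% and 84.5% of the control level, and CTSD reached 125%. No member changed as much as 2-fold: the largest absolute log2 fold change was 0.50, and the median over the members was -0.08, against 0.0030 over all 18843 tested genes. By direction, 4.25% of all tested genes were lower and 4.29% were higher, and of the 11784 with a mean of at least 5 CPM, a level every member reached, 6.23% were lower and 4.39% higher. The members' shares were 16.3% lower and 2.33% higher. The groups did not overlap for 11 members that were lower and 3 that were higher with ERI2 siRNA (25.6% and 6.98%), where 15.6% and 14.1% of all tested genes did not overlap in these directions and 29.7% in either. Because each library pools many cells, fewer transcripts per cell and fewer cells that express a gene cannot be told apart. The values are shares of a library, so a change in total RNA per cell would not be seen.

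The calls depended on single libraries. Without ERI2 siRNA replicate 2 or replicate 3 no member passed edgeR's test (by unadjusted p under 0.05, 8 lower and 2 higher, and 9 lower and 2 higher), and the 8 called genes had adjusted p from 0.0547 to 0.168. Without control replicate 3, 1 member was lower and 1 higher, WIPI1 and CTSD. Without control replicate 2, 4 were lower and none higher (2 higher at an unadjusted p under 0.05): WIPI1, LAMP2, CTSB and NPC2. Without ERI2 siRNA replicate 1, 9 were lower and 3 higher, and without control replicate 1, 7 were lower and 3 higher, with CTSD no longer among the 3. DESeq2 called 8 lower and 2 higher and limma-voom 7 lower and 1 higher on all 6 libraries. With replicates 2 and 3 alone, 15 members were lower and 5 higher (34.9% and 11.6%), where 14.1% and 13.9% of all tested genes, and 21.3% and 12.7% of those with at least 5 CPM, were lower and higher. They include each of the 8 genes called with all 6 libraries.

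**Figure D1:**
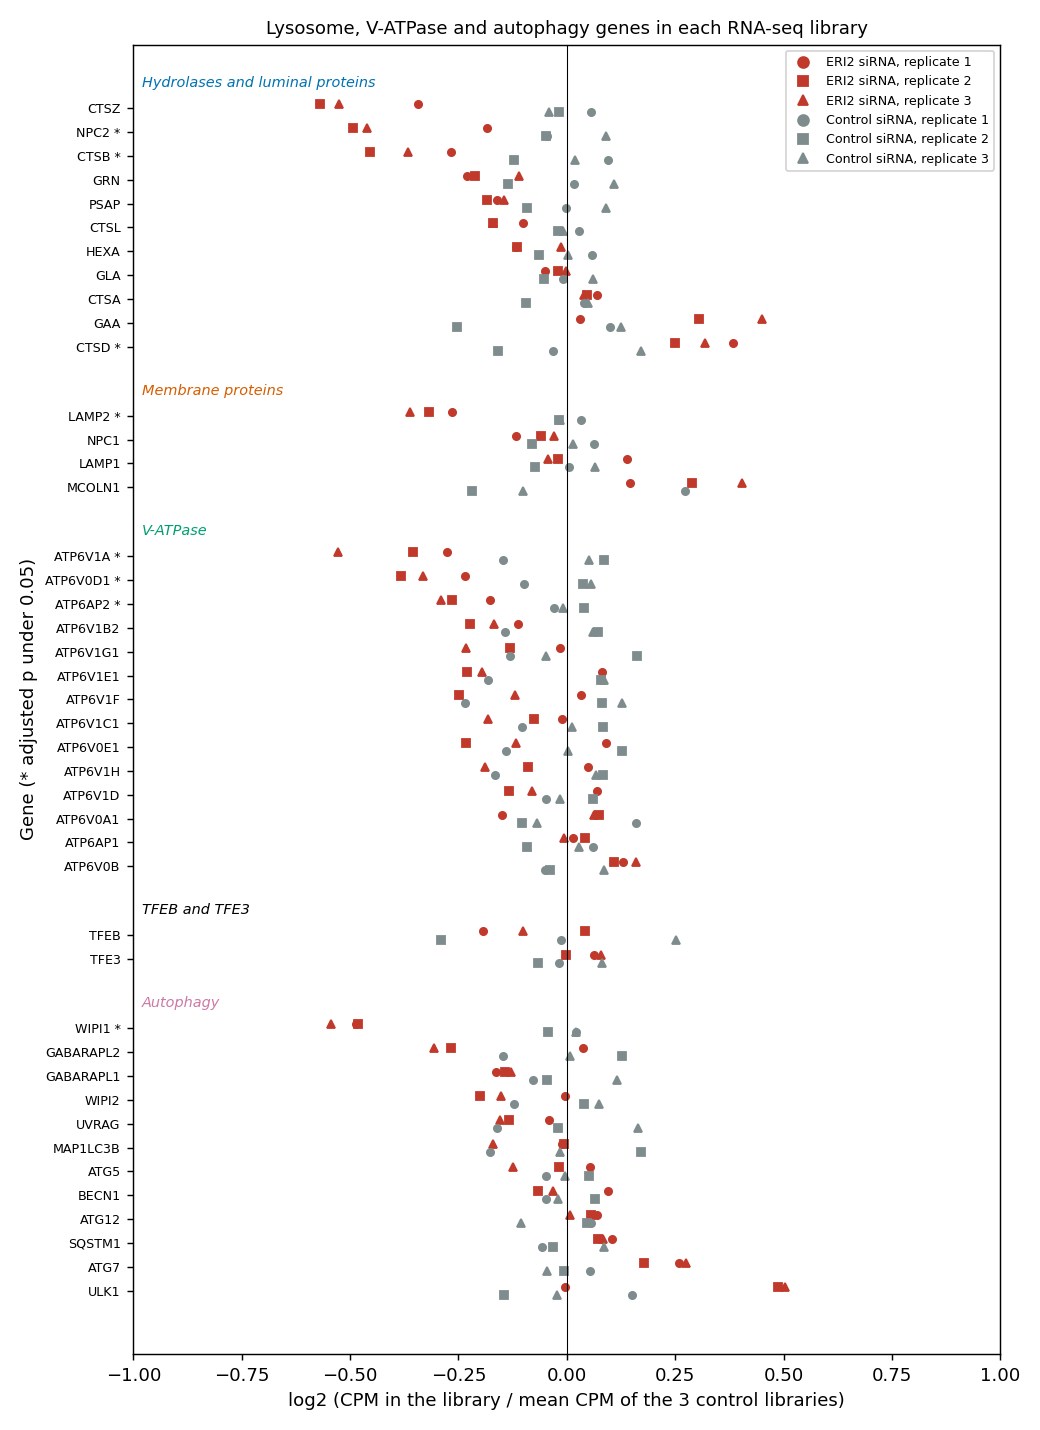
Level of each of the 43 genes in each library, as the log2 ratio of its CPM to the mean CPM of the 3 control libraries, by role. Red marks are ERI2 siRNA and grey marks control siRNA libraries, marker shapes give the replicate number, and an asterisk marks the 8 genes with an adjusted p under 0.05, whose red and grey marks do not overlap.

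Among hydrolases and other luminal proteins CTSB and NPC2 fell and CTSD rose, while the other 8 of 11 did not pass. Over all tested genes 4.25% were lower and 4.29% higher. CTSB, a cysteine protease, measured 91.9, 80.8 and 85.8 CPM in ERI2 siRNA libraries, against 118, 102 and 112 CPM in control libraries. Each ERI2 siRNA library lay below each control library (86.2 ± 5.58 CPM with ERI2 siRNA and 111 ± 8.31 CPM with control siRNA, SD, n = 3 each; log2 fold change -0.36, SE 0.0776, adjusted p = 0.0142). The difference had nearly the same size in replicates 2 and 3 alone (-0.36, adjusted p = 0.00151), and adjusted p reached 0.0862 when 1 library was left out.

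NPC2, which binds cholesterol in the lumen and hands it to NPC1, measured 65.1, 52.6 and 53.8 CPM in ERI2 siRNA libraries, against 71.7, 71.6 and 78.8 CPM in control libraries. ERI2 siRNA replicate 1 was the highest of its group and still below the lowest control library (57.2 ± 6.94 CPM with ERI2 siRNA and 74.0 ± 4.17 CPM with control siRNA, SD, n = 3 each; log2 fold change -0.37, SE 0.0881, adjusted p = 0.0212). NPC1, the membrane protein that exports the cholesterol, had overlapping groups (124 ± 3.87 CPM with ERI2 siRNA and 129.7 ± 6.45 CPM with control siRNA, SD, n = 3 each; log2 fold change -0.07, SE 0.0691, adjusted p = 0.568).

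CTSD, an aspartic protease, measured 95.6, 87.3 and 91.5 CPM in ERI2 siRNA libraries, against 71.8, 65.7 and 82.7 CPM in control libraries. Its groups did not overlap, with control replicate 3 nearest to the ERI2 siRNA libraries (91.5 ± 4.18 CPM with ERI2 siRNA and 73.4 ± 8.60 CPM with control siRNA, SD, n = 3 each; log2 fold change 0.32, SE 0.0850, adjusted p = 0.0342). Left-out libraries raised its adjusted p to at most 0.132, and with replicates 2 and 3 alone its log2 fold change was 0.27 (adjusted p = 0.0323). Since CTSB and CTSD moved in opposite directions, their ratio within a library, which does not depend on the scaling, separated the groups. The log2 ratio of CTSD to CTSB read counts was 0.06, 0.11 and 0.09 in ERI2 siRNA libraries, against -0.72, -0.63 and -0.44 in control libraries, a mean difference of 0.68. The pair was chosen with these results known, so the ratio is a description without a test.

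CTSZ, another cysteine protease and the least counted member of this role, came close to the threshold. It measured 4.72, 4.04 and 4.16 CPM in ERI2 siRNA libraries, against 6.23, 5.92 and 5.82 CPM in control libraries (log2 fold change -0.48, SE 0.141, adjusted p = 0.0509). The groups did not overlap, and it passed with DESeq2 and with replicates 2 and 3 alone (-0.52, adjusted p = 0.0240). CTSZ passed in 5 of the 15 alternative fits, limma-voom not among them, and its adjusted p reached 0.185 when 1 library was left out. CTSL, a further cysteine protease of the list, and PSAP, the precursor of the saposins that assist sphingolipid breakdown, also had non-overlapping groups but small differences. CTSL measured 53.8, 51.3 and 51.3 CPM in ERI2 siRNA libraries, against 58.9, 56.9 and 57.4 CPM in control libraries (log2 fold change -0.15, SE 0.0696, adjusted p = 0.194), and PSAP 416, 409.6 and 421 CPM in ERI2 siRNA libraries, against 465, 437 and 495 CPM in control libraries (log2 fold change -0.16, SE 0.0805, adjusted p = 0.213). GRN, progranulin, had a log2 fold change of -0.18 (adjusted p = 0.1501), with ERI2 siRNA replicate 3 above control replicate 2.

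GAA, which degrades glycogen in the lysosome, had overlapping groups. It measured 69.0, 83.5 and 92.2 CPM in ERI2 siRNA libraries, against 72.3, 56.6 and 73.6 CPM in control libraries (log2 fold change 0.27, SE 0.112, adjusted p = 0.137). In ERI2 siRNA replicates 2 and 3 it was above every control library, while replicate 1 was below control replicates 1 and 3. With replicates 2 and 3 alone it was higher (0.43, adjusted p = 0.00566). That fit leaves out the replicate 1 libraries behind the overlap, so its values are a description. HEXA, a subunit of beta-hexosaminidase, CTSA, the protective protein of the sialidase complex, and GLA, which removes terminal galactose from glycolipids, had log2 fold changes of -0.08, 0.05 and -0.02 with adjusted p from 0.493 to 0.851. GLA measured 148, 151 and 153 CPM in ERI2 siRNA libraries, against 152, 148 and 159.7 CPM in control libraries, and its groups overlapped.

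**Figure D2:**
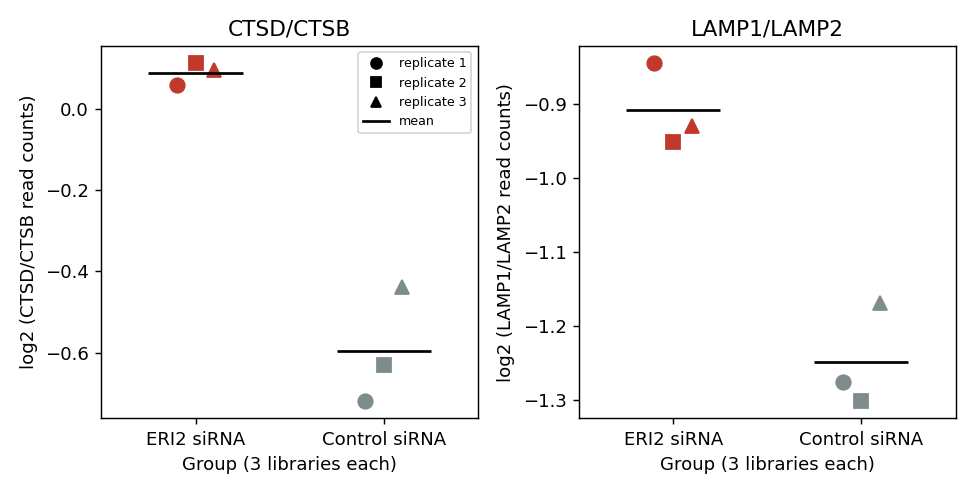
Log2 ratio of read counts within each library for CTSD over CTSB (left) and LAMP1 over LAMP2 (right). Marks are libraries, their shapes give the replicate number and lines are group means; for both ratios the 3 ERI2 siRNA libraries lie above the 3 control libraries.

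Of the 4 membrane proteins LAMP2 fell and the other 3 did not pass, where 4.25% of all tested genes were lower and 4.29% higher. LAMP2, a heavily glycosylated protein of the limiting membrane whose A isoform serves chaperone-mediated autophagy, measured 169.9, 164 and 159 CPM in ERI2 siRNA libraries, against 209, 201 and 202 CPM in control libraries. The highest ERI2 siRNA library was well below the lowest control library (164 ± 5.60 CPM with ERI2 siRNA and 204 ± 4.11 CPM with control siRNA, SD, n = 3 each; log2 fold change -0.31, SE 0.0674, adjusted p = 0.0141). It kept this size with replicates 2 and 3 alone (-0.33, adjusted p = 0.00136). The counts are per gene and do not separate its isoforms.

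LAMP1, its close relative and the other main glycoprotein of that membrane, measured 94.6, 84.7 and 83.3 CPM in ERI2 siRNA libraries, against 86.2, 81.7 and 89.8 CPM in control libraries (log2 fold change 0.03, SE 0.0742, adjusted p = 0.847). Its groups overlapped, and the sign of its fold change turned when ERI2 siRNA replicate 1 or control replicate 2 was left out. The log2 ratio of LAMP1 to LAMP2 read counts was -0.84, -0.95 and -0.93 in ERI2 siRNA libraries, against -1.28, -1.30 and -1.17 in control libraries. That is a mean difference of 0.34, given as a description because the pair was chosen with these results known.

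MCOLN1, the calcium channel TRPML1 of the lysosomal membrane, also had overlapping groups. It measured 9.22, 10.2 and 11.02 CPM in ERI2 siRNA libraries, against 10.1, 7.16 and 7.77 CPM in control libraries (log2 fold change 0.28, SE 0.140, adjusted p = 0.215). Control replicate 1 lay among the ERI2 siRNA libraries, and with replicates 2 and 3 alone the gene was higher (0.50, adjusted p = 0.00879). Since that fit leaves out the overlapping library, its values are a description. Summed over the 4 membrane genes the level was 393, 383 and 380.2 CPM with ERI2 siRNA, against 440.4, 413 and 430.4 CPM with control siRNA.

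Of the 14 V-ATPase genes 3 fell and none rose in edgeR's test (0 rises at an unadjusted p under 0.05, 0 by DESeq2 and 0 by limma-voom). Over all tested genes 4.25% were lower and 4.29% higher, and of those with at least 5 CPM 6.23% and 4.39%. The 3 V-ATPase genes that fell belong to different parts of the pump: ATP6V1A to the V1 sector, ATP6V0D1 to the V0 sector and ATP6AP2 to the accessory proteins. ATP6V1A, the catalytic subunit that binds ATP, measured 205, 194 and 172 CPM in ERI2 siRNA libraries, against 224, 263 and 257 CPM in control libraries. Control replicate 1 was the lowest control library and lay above ERI2 siRNA replicate 1, the highest of its group (190.4 ± 16.6 CPM with ERI2 siRNA and 248 ± 21.0 CPM with control siRNA, SD, n = 3 each; log2 fold change -0.38, SE 0.0863, adjusted p = 0.0173). With replicates 2 and 3 alone the log2 fold change was -0.51 (adjusted p = 6.8e-05), while the log2 difference between the replicate 1 libraries was -0.13.

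ATP6V0D1, the subunit that couples the rotor to the V0 ring, measured 80.3, 72.5 and 75.1 CPM in ERI2 siRNA libraries, against 88.2, 97.1 and 98.3 CPM in control libraries. The groups did not overlap (76.0 ± 3.96 CPM with ERI2 siRNA and 94.6 ± 5.51 CPM with control siRNA, SD, n = 3 each; log2 fold change -0.32, SE 0.0731, adjusted p = 0.0191), and the log2 fold change was -0.41 with replicates 2 and 3 alone (adjusted p = 0.000480). ATP6AP2, an accessory protein also known as the prorenin receptor, measured 97.2, 91.4 and 89.8 CPM in ERI2 siRNA libraries, against 108, 113 and 109 CPM in control libraries. Its libraries separated by group as well (92.8 ± 3.89 CPM with ERI2 siRNA and 109.9 ± 2.75 CPM with control siRNA, SD, n = 3 each; log2 fold change -0.24, SE 0.0672, adjusted p = 0.0395), and it no longer passed under total library size, where adjusted p was 0.0771. Adjusted p of these 3 genes reached 0.0976, 0.107 and 0.168 in the order named when 1 library was left out.

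Most V1 subunits differed between the siRNA groups in one direction in replicate 1 and in the other in replicates 2 and 3. All 8 V1 genes had a log2 fold change below 0, from -0.38 for ATP6V1A to -0.05 for ATP6V1D, and 7 of the 8 did not pass. Between the replicate 1 libraries 7 of the 8 were higher with ERI2 siRNA, with a median difference of 0.12 log2 units. In replicates 2 and 3 all 8 were lower, with medians of -0.29 and -0.24. Over all tested genes the medians of the same differences lay between -0.01 and 0.0020, and 17.9% of them were higher in replicate 1 and lower in both others. The labels state no pairing of libraries with the same replicate number, so these differences are a description.

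ATP6V1E1, which forms the peripheral stalk with G subunits, is an example. It measured 93.4, 75.3 and 77.1 CPM in ERI2 siRNA libraries, against 77.8, 93.4 and 93.8 CPM in control libraries (log2 fold change -0.11, SE 0.0953, adjusted p = 0.504). ERI2 siRNA replicate 1 lay with control replicates 2 and 3, and control replicate 1 with ERI2 siRNA replicates 2 and 3. ATP6V1F, at the rotor's base, did the same, with 64.0, 52.7 and 57.6 CPM in ERI2 siRNA libraries, against 53.2, 66.2 and 68.4 CPM in control libraries (log2 fold change -0.11, SE 0.0997, adjusted p = 0.527). With replicates 2 and 3 alone 8 of the 14 V-ATPase genes were lower and none higher (57.1% lower), where this fit called 14.1% of all tested genes lower and 21.3% of those with at least 5 CPM. The 8 were the 3 named above and ATP6V1B2, ATP6V1E1, ATP6V1F, ATP6V1G1 and ATP6V0E1. Most of them had the opposite sign in the replicate 1 libraries, which that fit leaves out, so the count is a description. Replicate 1 and the other replicates thus gave opposite signs for most of this role, and what separates them was not tested.

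ATP6V0B, a ring subunit, and ATP6V0A1, whose channel passes the protons, did not follow the V1 genes. ATP6V0B measured 91.4, 90.2 and 93.4 CPM in ERI2 siRNA libraries, against 80.7, 81.3 and 88.7 CPM in control libraries, with non-overlapping groups (log2 fold change 0.13, SE 0.0686, adjusted p = 0.233). ATP6V0A1 measured 105, 122 and 121 CPM in ERI2 siRNA libraries, against 129, 108 and 111 CPM in control libraries, and its mean was nearly the same in both groups (log2 fold change -0.00045, SE 0.0867, adjusted p = 0.999). ATP6AP1, the other accessory protein, had a log2 fold change of 0.02 (adjusted p = 0.904). ATP6V1B2, a V1 subunit that pairs with ATP6V1A, measured 51.7, 47.9 and 49.8 CPM in ERI2 siRNA libraries, against 50.7, 58.8 and 58.3 CPM in control libraries (log2 fold change -0.17, SE 0.0796, adjusted p = 0.196), and ATP6V1G1, of the peripheral stalk, had a log2 fold change of -0.12 (adjusted p = 0.389). The remaining ATP6V1C1, ATP6V1D, ATP6V1H and ATP6V0E1 had log2 fold changes from -0.09 to -0.05 and overlapping groups. ATP6V1G1 and ATP6V1E1 have processed copies in the table, of which ATP6V1G1P4 had 21, 18 and 25 counts in ERI2 siRNA libraries and 7, 10 and 14 in control libraries, against at least 1973 for ATP6V1G1.

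**Figure D3:**
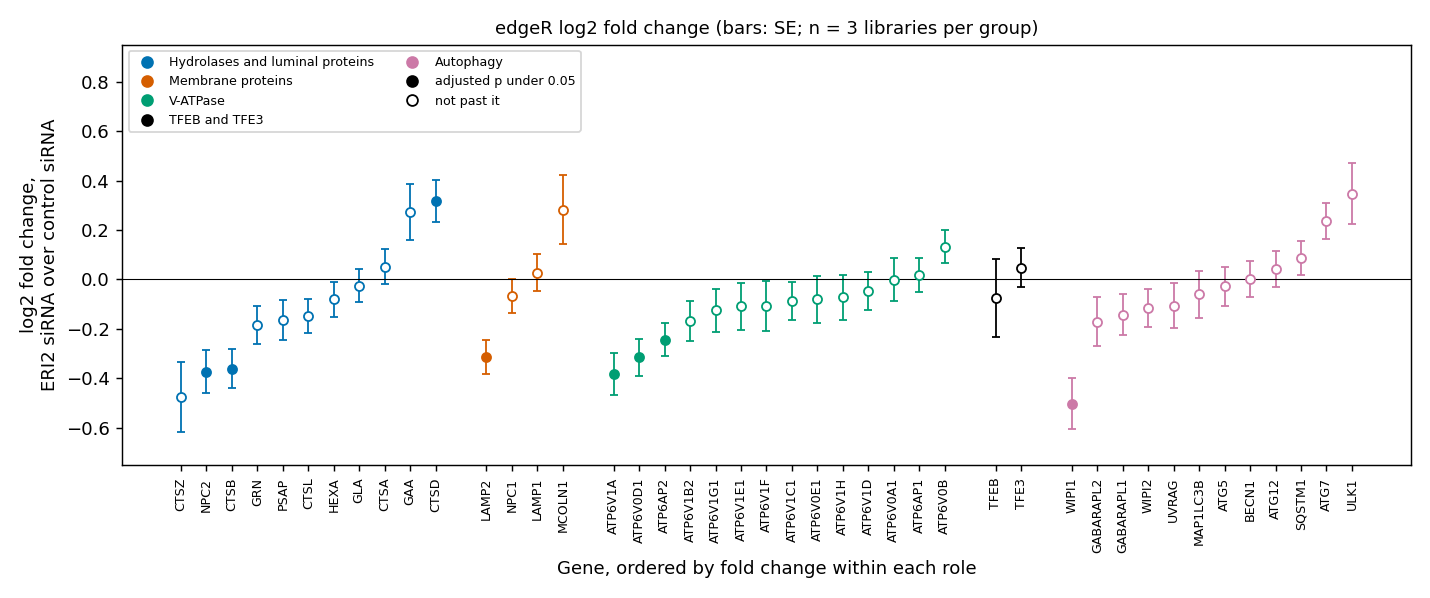
Log2 fold change of ERI2 siRNA over control siRNA for each gene, ordered within its role, with bars for the SE (n = 3 libraries per group). Filled marks have an adjusted p under 0.05: CTSB, NPC2, LAMP2, ATP6V1A, ATP6V0D1, ATP6AP2 and WIPI1 below 0 and CTSD above it.

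**Figure D4:**
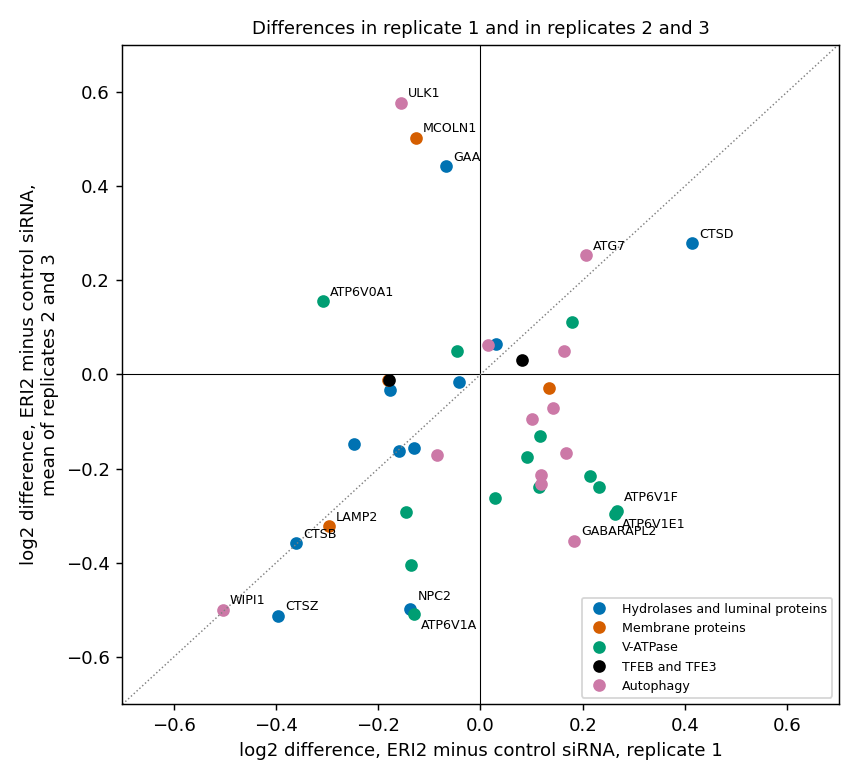
Log2 CPM difference, ERI2 siRNA minus control siRNA, between the replicate 1 libraries (horizontal axis) and as a mean over replicates 2 and 3 (vertical axis), 1 point per gene, coloured by role. WIPI1, CTSB and LAMP2 lie near the dotted line of equal differences, most V-ATPase genes lie at the lower right, and ULK1, MCOLN1 and GAA at the upper left.

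Neither transcription factor passed the test. TFEB measured 5.20, 6.11 and 5.54 CPM in ERI2 siRNA libraries, against 5.89, 4.86 and 7.07 CPM in control libraries (log2 fold change -0.07, SE 0.158, adjusted p = 0.805), and TFE3 30.4, 29.03 and 30.7 CPM in ERI2 siRNA libraries, against 28.7, 27.7 and 30.7 CPM in control libraries (log2 fold change 0.05, SE 0.0800, adjusted p = 0.746). In both genes the groups overlapped, and no difference was detectable at this depth, TFEB being the less counted of the pair with the larger SE. These are transcript levels, whereas both proteins are controlled largely by phosphorylation and location, which were not measured.

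In autophagy WIPI1 fell and the other 11 of 12 genes did not pass. Over all tested genes 8.54% were called in either direction, so 1 call in 12 genes is near the background. WIPI1, which binds phosphatidylinositol 3-phosphate on the forming autophagosome and is itself a TFEB target, measured 8.97, 8.99 and 8.61 CPM in ERI2 siRNA libraries, against 12.7, 12.2 and 12.8 CPM in control libraries. Libraries of a group lay close together and far from those of the other group (8.86 ± 0.213 CPM with ERI2 siRNA and 12.6 ± 0.327 CPM with control siRNA, SD, n = 3 each; log2 fold change -0.50, SE 0.103, adjusted p = 0.0122). This was the largest fold change among the 43 genes, and it stood at -0.50 with replicates 2 and 3 alone (adjusted p = 0.00570). It passed in 12 of the 15 alternative fits, the exceptions being the replicate block (adjusted p = 0.0734) and the fits without ERI2 siRNA replicate 2 or 3 (at most 0.0574). Its paralogue WIPI2, which recruits the conjugation machinery, had overlapping groups (87.7 ± 6.28 CPM with ERI2 siRNA and 95.0 ± 6.77 CPM with control siRNA, SD, n = 3 each; log2 fold change -0.12, SE 0.0780, adjusted p = 0.366).

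ATG7 and ULK1 came near the threshold, with log2 fold changes above 0. ATG7, the E1-like enzyme that activates both ubiquitin-like conjugation systems of autophagy, measured 59.5, 56.2 and 60.1 CPM in ERI2 siRNA libraries, against 51.6, 49.5 and 48.1 CPM in control libraries (log2 fold change 0.24, SE 0.0718, adjusted p = 0.0553). Its groups did not overlap, and it passed with DESeq2 and with replicates 2 and 3 alone (0.25, adjusted p = 0.0268). ATG7 passed in 6 of the 15 alternative fits, limma-voom not among them, and its adjusted p reached 0.214 when 1 library was left out. ULK1, the kinase that starts autophagy, measured 27.7, 38.9 and 39.3 CPM in ERI2 siRNA libraries, against 30.8, 25.1 and 27.3 CPM in control libraries (log2 fold change 0.35, SE 0.124, adjusted p = 0.0933). ERI2 siRNA replicates 2 and 3 were above every control library, but replicate 1 was among the controls. With replicates 2 and 3 alone the difference was 0.57 (adjusted p = 0.000203), a description, since that fit leaves out the overlapping library. ULK1 passed in 4 of the 15 alternative fits, and its adjusted p reached 0.319 when 1 library was left out.

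The LC3 and GABARAP members, which coat autophagosomes and recruit cargo receptors, did not pass. GABARAPL1 measured 25.9, 26.3 and 26.6 CPM in ERI2 siRNA libraries, against 27.5, 28.1 and 31.5 CPM in control libraries, with non-overlapping groups (log2 fold change -0.14, SE 0.0832, adjusted p = 0.292). GABARAPL2 measured 64.8, 52.5 and 51.1 CPM in ERI2 siRNA libraries, against 57.0, 69.0 and 63.4 CPM in control libraries (log2 fold change -0.17, SE 0.0984, adjusted p = 0.288), with ERI2 siRNA replicate 1 among the controls. It was lower with replicates 2 and 3 alone (-0.36, adjusted p = 0.00280), a description, since that fit leaves out the overlapping library. MAP1LC3B measured 33.5, 33.5 and 30.0 CPM in ERI2 siRNA libraries, against 29.8, 37.95 and 33.4 CPM in control libraries (log2 fold change -0.06, SE 0.0959, adjusted p = 0.731). The near-identical copies MAP1LC3B2 and GABARAPL3 had at most 5 and 4 counts in any library, although reads shared with a copy may have been left uncounted.

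SQSTM1, the cargo receptor p62, measured 161, 157 and 158 CPM in ERI2 siRNA libraries, against 144, 146 and 159 CPM in control libraries (log2 fold change 0.09, SE 0.0689, adjusted p = 0.453). Control replicate 3 was as high as the ERI2 siRNA libraries. BECN1 and UVRAG, which work in the lipid kinase complex, and ATG5 and ATG12, which are joined to each other by ATG7 and ATG10, had log2 fold changes of 0.00021, -0.11, -0.03 and 0.04 in the order named, with adjusted p from 0.485 to 0.999. Summed over the 12 genes the level was 695, 662 and 662 CPM with ERI2 siRNA, against 646, 682 and 684 CPM with control siRNA, so the groups overlapped.

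Across all roles the 43 genes were also compared by the sign of their difference within each replicate number. In each of the 3 replicates 13 genes were lower with ERI2 siRNA, where 20.8% of all tested genes were, and 4 genes, CTSD, ATP6V0B, ATG7 and ATG12, were higher, where 19.9% were. A further 14, among them 8 V-ATPase genes, were higher in replicate 1 and lower in both others, as were 17.9% of all tested genes. The 4 genes GAA, MCOLN1, ULK1 and ATP6V0A1 showed the opposite, as did 18.2% of all tested genes. The other 8 genes had mixed signs. The labels give replicate numbers and state no pairing, so these counts are a description.

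A further 164 genes of the same pathways were listed by known role, with earlier results of these data known, so they are no independent check. Of the 157 that were tested 19 were lower and 4 higher (12.1% and 2.55%). The background shares were 4.25% and 4.29% of all tested genes. Of those with at least 5 CPM, a level that not every gene of these lists reached, 6.23% were lower and 4.39% higher. These shares are also the background for the counts of each list below. With replicates 2 and 3 alone 39 were lower and 16 higher (24.8% and 10.2%), where 14.1% and 13.9% of all tested genes, and 21.3% and 12.7% of those with at least 5 CPM, were lower and higher. Without ERI2 siRNA replicate 2, ERI2 siRNA replicate 3, control replicate 2 or control replicate 3, from 6 to 13 were lower and none higher in edgeR's test (5 to 12 higher at an unadjusted p under 0.05), and under total library size 12 were lower and 4 higher. Over all tested genes the same left-out libraries gave 195 to 425 lower and 176 to 299 higher, against 800 and 809 with all 6 libraries.

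Of 39 other hydrolases 4 were lower and none higher in edgeR's test (2 higher at an unadjusted p under 0.05, 0 by DESeq2 and limma-voom). LIPA, the acid lipase that splits cholesteryl esters, averaged 91.1 ± 4.48 CPM with ERI2 siRNA and 119 ± 3.99 CPM with control siRNA (SD, n = 3 each; log2 fold change -0.39, SE 0.0690, adjusted p = 0.00692). GM2A, the activator that presents GM2 ganglioside to beta-hexosaminidase, averaged 45.7 ± 3.78 CPM with ERI2 siRNA and 62.0 ± 1.64 CPM with control siRNA (SD, n = 3 each; log2 fold change -0.44, SE 0.0785, adjusted p = 0.00692). CTSH, an aminopeptidase, averaged 21.7 ± 1.39 CPM with ERI2 siRNA and 29.1 ± 1.22 CPM with control siRNA (SD, n = 3 each; log2 fold change -0.42, SE 0.0849, adjusted p = 0.0117). LIPA and GM2A kept their calls without any 1 library.

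Of 22 other membrane proteins 4 were lower and none higher (2 higher at an unadjusted p under 0.05, 0 by DESeq2 and limma-voom). SCARB2, the receptor that carries glucocerebrosidase to lysosomes, averaged 114 ± 9.05 CPM with ERI2 siRNA and 148 ± 4.51 CPM with control siRNA (SD, n = 3 each; log2 fold change -0.38, SE 0.0744, adjusted p = 0.0107). CD63, a tetraspanin, averaged 124 ± 4.25 CPM with ERI2 siRNA and 156 ± 5.64 CPM with control siRNA (SD, n = 3 each; log2 fold change -0.33, SE 0.0679, adjusted p = 0.0125). SLC17A5, the sialic acid exporter, had a log2 fold change of -0.30 (adjusted p = 0.0449), and HGSNAT, an acetyltransferase of heparan sulfate breakdown, -0.31 (adjusted p = 0.0449). HGSNAT did not pass with replicates 2 and 3 alone (adjusted p = 0.108) and lost its call whichever library was left out. None of 18 sorting genes, among them the mannose phosphate receptors and the HOPS and retromer subunits, passed edgeR's test, against 2 lower by unadjusted p under 0.05, 2 lower in DESeq2 and 0 in limma-voom.

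Among 13 other V-ATPase genes TCIRG1, an isoform of the proton channel subunit best known from osteoclasts, rose and none fell in edgeR's test (2 lower at an unadjusted p under 0.05, 0 by DESeq2 and limma-voom). TCIRG1 measured 12.7, 15.2 and 18.3 CPM in ERI2 siRNA libraries, against 12.3, 7.94 and 10.9 CPM in control libraries (log2 fold change 0.57, SE 0.160, adjusted p = 0.0421). Control replicate 1 came close to ERI2 siRNA replicate 1, and the difference was 0.84 with replicates 2 and 3 alone (adjusted p = 0.000409). TCIRG1 lost its call under total library size and without any of ERI2 siRNA or control replicates 2 and 3, where adjusted p reached 0.187. The isoform genes ATP6V0A4, ATP6V0D2 and ATP6V1G3, which specialised kidney or bone cells use, had totals of 6, 37 and 0 counts over the 6 libraries and were not tested. A count of 0 allows up to 3 counts, or 0.0810 to 0.105 CPM, in a library, for counting error alone.

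Among 23 other regulators of the mTORC1 and TFEB circuit 2 rose and 3 fell. FLCN, folliculin, which acts on the RagC and RagD GTPases, averaged 47.3 ± 3.58 CPM with ERI2 siRNA and 37.5 ± 2.90 CPM with control siRNA (SD, n = 3 each; log2 fold change 0.33, SE 0.0863, adjusted p = 0.0305), and MLST8, an mTOR subunit, had a log2 fold change of 0.28 (adjusted p = 0.0419). RRAGA, RRAGC and LAMTOR5, parts of the Rag GTPase and Ragulator platform that holds mTORC1 on lysosomes, had log2 fold changes of -0.35, -0.37 and -0.38 (adjusted p of 0.0234, 0.0463 and 0.0425). RRAGC and MLST8 did not pass with replicates 2 and 3 alone (adjusted p of 0.0777 and 0.0752), and MLST8 lost its call whichever library was left out.

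Of 42 other autophagy genes 8 were lower and 1 higher. ULK2, the paralogue of ULK1, averaged 18.1 ± 1.12 CPM with ERI2 siRNA and 25.2 ± 1.72 CPM with control siRNA (SD, n = 3 each; log2 fold change -0.48, SE 0.0903, adjusted p = 0.00863), so the 2 starting kinases had fold changes of opposite sign, of which that of ULK1 did not pass. OPTN, a cargo receptor for mitochondria and bacteria, averaged 32.9 ± 1.34 CPM with ERI2 siRNA and 45.1 ± 4.35 CPM with control siRNA (SD, n = 3 each; log2 fold change -0.45, SE 0.0857, adjusted p = 0.00902). VAMP8, a SNARE that fuses autophagosomes with lysosomes, averaged 8.26 ± 0.512 CPM with ERI2 siRNA and 12.3 ± 0.880 CPM with control siRNA (SD, n = 3 each; log2 fold change -0.57, SE 0.112, adjusted p = 0.0104). GABARAP, BNIP3L, PINK1, SH3GLB1 and TP53INP2 were the other 5 that fell, with log2 fold changes from -0.69 to -0.26. ATG4B, the protease that processes LC3 and GABARAP proteins before they are conjugated, rose (81.6 ± 4.72 CPM with ERI2 siRNA and 68.1 ± 3.17 CPM with control siRNA, SD, n = 3 each; log2 fold change 0.26, SE 0.0731, adjusted p = 0.0418). OPTN and BNIP3L (log2 fold change of BNIP3L -0.51, adjusted p = 0.0105) kept their calls without any 1 library. ULK2 and VAMP8 lost theirs without ERI2 siRNA replicate 2 (adjusted p of 0.0517 and 0.0528). BNIP3L passed in each of the 15 alternative fits.

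**Figure D5:**
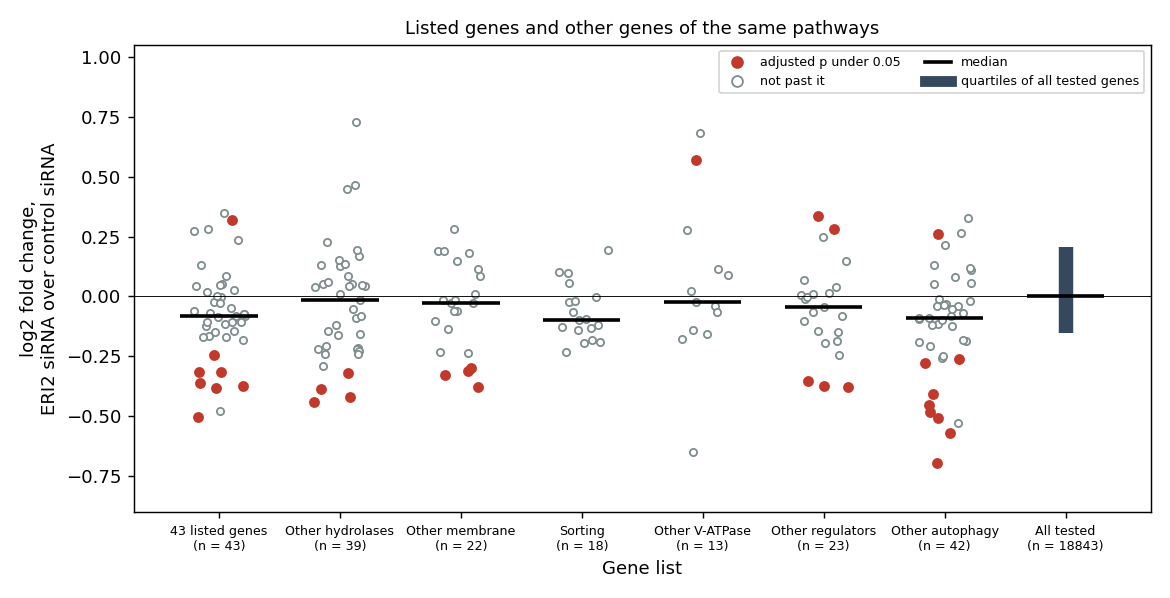
Log2 fold change of ERI2 siRNA over control siRNA for the 43 genes and for 6 lists of other genes of the same pathways; red marks have an adjusted p under 0.05 and black lines are medians. The bar at the right spans the quartiles of all 18843 tested genes, from -0.15 to 0.21; most red marks lie below it.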

How the data were processed

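RNA-seq counts of 6 HEK293T libraries were used, 3 per group. The authors deposited raw read counts per gene name, whole numbers with a different total in each library. The submitters' processing notes name hg19 as the build and, with no role stated, HTSeq 0.6.1p1, TopHat2 2.0.10 and CASAVA 1.8.2. Strand setting and annotation release: not given in the sources used here, so antisense or overlapping genes may share counts. Groups come from the sample titles, and 0 columns lacked a sample. The miRNA table was not used here.

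Counts were filtered with filterByExpr (18843 genes kept), scaled by TMM and tested across all genes with edgeR 4.0.16 (robust quasi-likelihood, R 4.3.3) at a Benjamini-Hochberg adjusted p under 0.05. SE is the log2 fold change over the root of F. Per-library log2 differences use log2 CPM with a prior count of 2. Alternatives were DESeq2 1.42.0, limma-voom (limma 3.58.1), other scalings and filters, an adjusted p under 0.01, the replicate block, each library left out, and replicates 2 and 3 alone. Members and lists were chosen with earlier results of these data known. Named genes were members called or with an adjusted p up to 0.10, LAMP1, TFEB and TFE3, and up to 3 called genes per direction in each other list; HGSNAT, the other 5 lowered autophagy genes, and members given by value beyond this rule were added after their values were seen. ATG101 and RUBCN were read under older symbols. A withheld gene is not reported here. Start regions are RefSeq sequence of GRCh38.p14, another build than the counts, and were matched by symbol.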

Additional observations from a re-analysis of the deposited data

How the results depend on the processing

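The 31 called pathway genes, 8 members and 23 others, kept their direction under every alternative run. Counts moved more, and the cause was not tested. With the replicate block, 0 members were higher and 0 lower (4 and 8 at an unadjusted p under 0.05 in edgeR), 0 and 1 of the other pathway genes, and 105 and 98 of all tested genes. For libraries with the same number, deviations from the group means correlated at -0.300, -0.0792 and -0.104 in replicates 1, 2 and 3. None was positive, and what lies behind the negative value of replicate 1 was not tested. At an adjusted p under 0.01, 0 members were higher and 0 lower (4 and 9 at an unadjusted p under 0.05), 0 and 4 other pathway genes, and 139 and 145 of all tested genes. With replicates 2 and 3 alone the counts higher and lower were 5 and 15 members, 16 and 39 other pathway genes, and 2622 and 2670 of all tested genes. Leaving out 1 library gave 0 to 3 members higher and 0 to 9 lower, 0 to 8 and 6 to 25 other pathway genes, and 176 to 1424 and 195 to 1327 of all tested genes. Without a count filter 3 members, 7 other pathway genes and 1290 of all tested genes were higher. DESeq2, the upper quartile, the filter of at least 1 CPM and total library size each called 2 members higher, ATG7 beside CTSD. Under total library size the median log2 fold change over all genes was 0.06; it called 12 other pathway genes and 463 of all tested genes lower, and 67.8% of its calls were higher, against 50.3%.

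Of the members that did not pass, 10 turned sign somewhere and none of these 10 passed in any alternative; uncalled genes of the other lists were not followed singly; the cause was not tested. GLA had log2 fold changes of 0.034 under total library size and 0.0038 under the upper quartile. ATP6V0A1 had 0.00075 with limma-voom, 0.0020 with RLE, 0.056 with total library size, 0.027 with the upper quartile, 0.0078 with the 1 CPM filter, 0.0011 with the replicate block and 0.15 with replicates 2 and 3 alone. BECN1 had -0.0075 with DESeq2, -0.0010 with limma-voom, -0.010 without a filter, -0.00050 with the replicate block and -0.078 with replicates 2 and 3 alone. Total library size gave 0.010 for ATP6V1D and 0.029 for ATG5, and replicates 2 and 3 alone gave -0.033 for LAMP1. Without 1 library the log2 fold changes ranged from -0.043 to 0.061 for LAMP1, -0.053 to 0.084 for ATP6V0A1, -0.030 to 0.045 for ATP6AP1, -0.20 to 0.052 for TFEB, -0.15 to 0.033 for MAP1LC3B, -0.061 to 0.032 for BECN1, -0.081 to 0.016 for ATG5 and -0.019 to 0.070 for ATG12. TFEB and CTSZ, the members with the fewest counts, had the largest SE of the members, 0.158 and 0.141. MCOLN1 followed with 0.140, and what sets the SE was not tested.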
